A study of Mus musculus with 30 samples.

Results

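Furin-deficient CD8+ T cells stimulated in the presence of recombinant TGFB1 were compared with wild-type (WT) cells given the same treatment. The comparison rests on 10 of the 30 libraries of the series, 5 labelled Furin KO and 5 labelled WT, chosen by genotype and treatment label, and it was read across all genes. Naive CD8+ T cells were isolated with magnetic beads from spleen and lymph node tissue of C57BL/6 mice, 8 weeks of age, and cultured for 3 days in serum-free medium on plate-bound anti-CD3 (5 µg/ml) and anti-CD28 (5 µg/ml). The libraries compared here also received TGFB1 at 0.5 ng/ml. The other 20 libraries, used below as 2 reference conditions, had the same stimulation with no added cytokine or with IL12 at 10 ng/ml, again 5 of each genotype. Each genotype was made up of 4 female mice and 1 male in every condition. Neither the deleted stretch of Furin nor the driver of the deletion and the cells it acts in are given in the labels, nor whether each culture came from a separate animal, so the p-values below measure the spread between these samples, which may be technical. Poly(A)+ RNA was sequenced from directional libraries.

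FURIN is a proprotein convertase, a protease of the trans-Golgi network that cuts precursor proteins after basic residues. Pro-TGFB1, several integrin alpha chains and many growth factors and receptors are among its known substrates. T cells that bind active TGFB1 signal through TGFBR1 and TGFBR2 to SMAD2 and SMAD3. In CD8+ T cells this pathway is known for inducing the integrin CD103 (Itgae) and for restraining cytotoxic genes.

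Each library held between 7522984 and 11435315 counts, and 11718 genes passed the filter on low counts. Libraries are named below by genotype and by the number in their title. Values listed per library follow the order WT 62, 67, 71, 72 and 75 and KO 63, 68, 70, 73 and 74, where WT 62 and KO 63 are the males. Levels are CPM, counts scaled to a common library size, which do not account for gene length and are compared only within a gene. A gene is called where edgeR's quasi-likelihood test over all 30 libraries gave a Benjamini-Hochberg adjusted p under 0.05, and fold changes are log2 values, KO minus WT. Because the spread was larger with TGFB1 than without (biological coefficient of variation 17.5% in WT and 13.9% in KO, against 10.1% and 7.87% with no cytokine), a second fit on the 10 libraries alone was run, and genes described below as risen or fallen were called in both fits unless stated.

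WT 62 and KO 73 stood apart from their groups. On the first principal component of the 10 libraries, which held 62.9% of the variance, WT 67, 71, 72 and 75 lay at 38.8, 41.1, 13.7 and 41.5 and KO 68, 70 and 74 at -41.3, -19.2 and -47.5. WT 62 lay at -14.7, on the KO side beside the other male KO 63 at -13.2, and KO 73 lay at 0.84. WT 62 also led the second component, at 31.2. Across the 4166 genes called, WT 62 lay within or beyond the range of the KO libraries at 71.7% and KO 73 within or beyond the range of the WT libraries at 70.5%, compared with 4.49% to 49.9% for the other 8 libraries. The reason was not tested, and no library was left out of the main values. Leaving out WT 62 raised the number of genes called to 5386 and leaving out KO 73 raised it to 4689.

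**Figure D1:**
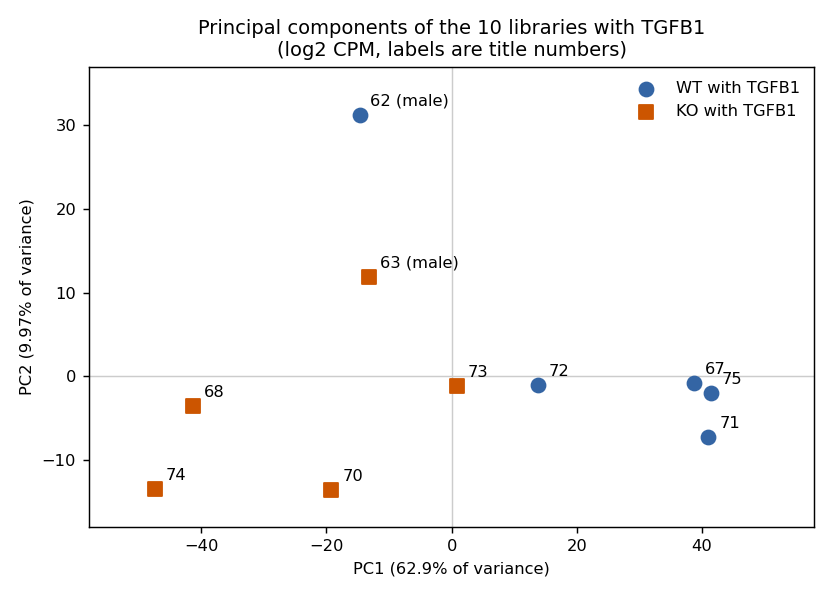
First 2 principal components of log2 CPM in the 10 libraries with TGFB1, with the share of variance on each axis. Points are libraries (circles WT, squares KO) labelled by title number. WT 62 lies at -14.7 on the first axis, among the KO libraries, and KO 73 lies at 0.84, between the groups.

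Of the 11718 genes tested, 4166 were called (35.6%), 2144 of them higher (18.3%) and 2022 lower (17.3%) in KO. Both fits called 2242 genes (19.1%), 1040 higher (8.88%) and 1202 lower (10.3%), and the 10 libraries alone called 2307 of 11141 (20.7%), 1062 higher (9.53%) and 1245 lower (11.2%). The levels of all 5 KO libraries lay above all 5 WT libraries at 437 genes (3.73%) and below them at 458 (3.91%). The median fold change over all genes was -0.01. Counts of list members are to be read against these shares. In bulk libraries, fewer cells of a type and less RNA per cell cannot be told apart. Among the lists described below, type I interferon response and naive-cell genes had the largest shares of members lower in KO, and cholesterol synthesis and amino acid genes the largest shares higher.

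**Figure D2:**
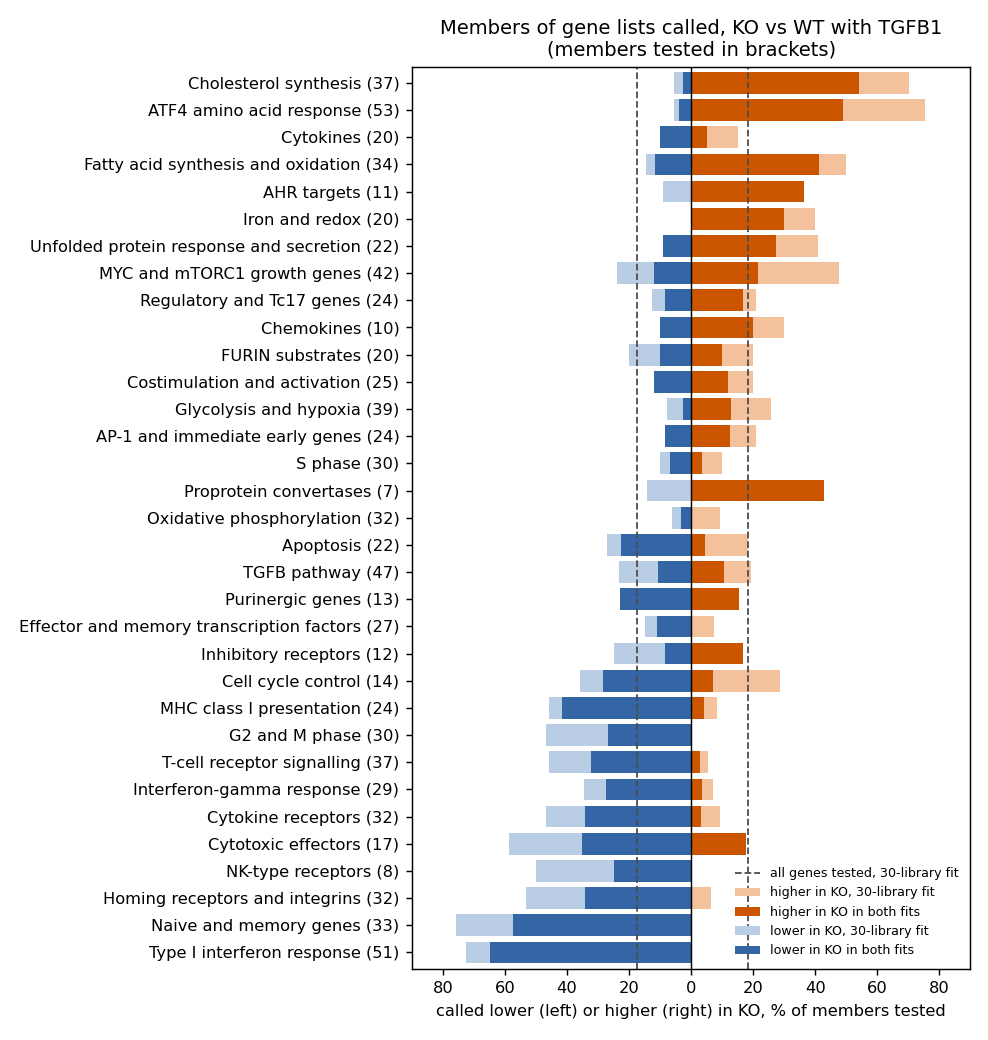
Share of tested members of each gene list called lower (left) or higher (right) in KO with TGFB1, in percent, with the number tested in brackets. Pale bars count calls of the 30-library fit, dark bars calls of both fits, and dashed lines mark the share over all genes tested (17.3% lower, 18.3% higher). The type I interferon list reaches 37 of 51 members lower and the cholesterol list 26 of 37 higher.

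Furin transcript levels did not differ. Furin (GRCm38 chr7:80388585-80405436, minus strand) stood at 73.9, 75.3, 79.9, 93.2 and 82.3 CPM in the WT libraries and at 66.0, 72.3, 90.2, 79.3 and 81.9 CPM in the KO libraries (log2 fold change -0.05, SE 0.29, edgeR adjusted p = 0.901). The groups overlapped throughout. A count over all exons includes those outside any deleted part, so this level checks neither the deletion nor the labels.

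Within the TGFB pathway list single genes moved in both directions, with the ligand-binding receptor Tgfbr2 lower and Lrrc32, Bmpr1a, Eng and Smad2 higher in KO. Of 47 members tested, 9 were called higher and 11 lower, and both fits called 5 each way, shares close to those of all genes (median fold change -0.05). The count of lower members was 19 without WT 62 and the count of higher members 5 without KO 74. Lrrc32, which encodes GARP, the receptor that holds latent TGFB1 on activated and regulatory T cells, stood at 1.23, 0.708, 0.794, 1.04 and 0.673 CPM in WT and at 2.39, 3.77, 3.43, 1.61 and 5.34 CPM in KO. Every KO library lay above every WT library (fold change 1.89, SE 0.45, edgeR adjusted p = 0.00238). Nrros, which encodes a relative of GARP, fell by 0.30 on the log2 scale, from 37.8 ± 1.49 to 30.8 ± 1.80 CPM (SD, n = 5 each), also without overlap. Tgfb1 itself, the ligand gene, was 205 ± 19.3 CPM in WT and 245 ± 27.2 CPM in KO (SD, n = 5 each). Its difference of 0.26 passed the 30-library test but not that of the 10 libraries, nor the 30-library test without KO 74 (0.20, edgeR adjusted p = 0.0633).

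Among receptors, Tgfbr2 (chr9:116084293-116175360), the ligand-binding subunit, was lower in KO. It stood at 54.3, 134, 137, 85.9 and 135 CPM in WT and at 59.7, 39.6, 68.9, 64.6 and 38.5 CPM in KO (fold change -1.01, SE 0.19, edgeR adjusted p = 0.000478). WT 62 was alone among the WT libraries in lying within the KO range. Tgfbr1, the partner kinase, did not pass the test, with 42.3 ± 8.82 CPM in WT and 43.7 ± 7.59 CPM in KO (SD, n = 5 each). Bmpr1a, a receptor for bone morphogenetic proteins, rose from 2.02 ± 0.714 to 5.58 ± 1.57 CPM (SD, n = 5 each, fold change 1.47). Eng, the co-receptor endoglin, stood between 26.2 and 62.2 CPM in WT and between 70.1 and 77.2 CPM in KO (fold change 0.76). Neither Bmpr1a nor Eng overlapped between groups.

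The SMAD genes behaved differently from each other. Smad2, a receptor-activated SMAD, stood at 91.6, 69.1, 77.2, 89.2 and 71.5 CPM in WT and at 107, 120.4, 114, 96.5 and 126 CPM in KO (fold change 0.50, SE 0.07, edgeR adjusted p = 7.88e-05). The groups did not overlap. Smad3, the other such SMAD, was called lower over 30 libraries (fold change -0.95) and not over 10 (edgeR adjusted p = 0.0555). It also lost its call in 5 of the 10 fits that left out 1 library, without KO 68, 70 or 74 or WT 72 or 75, with edgeR adjusted p between 0.0576 and 0.108. Smad4, the shared partner, was at 88.4 ± 5.28 and 89.3 ± 7.07 CPM (SD, n = 5 each). The inhibitors Ski and Skil did not pass the test, with fold changes of -0.26 and -0.15, although Skil was called without WT 62 (-0.25, edgeR adjusted p = 0.0294).

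Genes known to respond to TGFB1 in T cells were more often lower than higher, but did not all move together. Of 16 tested, 5 were called lower and 1 higher, and both fits called 3 and 1, with a median fold change of -0.64. Of all genes, 17.3% were called lower and 18.3% higher. The mean log2 level of the 16, centred per gene, was -0.61 in WT 62 and 0.23 to 0.67 in the other WT libraries. In the KO libraries it was -0.58 to 0.20. Itgae, which encodes CD103, stood at 28.9, 244, 268, 152 and 254 CPM in WT and at 41.5, 28.4, 84.8, 65.6 and 35.9 CPM in KO (fold change -1.88). WT 62 had the second-lowest Itgae level of all 10 libraries. Id3, an inhibitor of E proteins, was 49.3 ± 21 CPM in WT and 15.6 ± 6.80 CPM in KO (SD, n = 5 each, fold change -1.66). Foxp3, the regulatory T cell factor, moved the other way, with 2.02, 2.36, 5.03, 3.23 and 1.73 CPM in WT, against 7.45, 8.41, 12.9, 5.30 and 16.2 CPM in KO (fold change 1.79, SE 0.37, edgeR adjusted p = 0.000898). Foxp3 did not overlap between groups, but its levels were low in all libraries. Nt5e (CD73) and Ctla4 did not pass the test.

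Other convertases were looked at because they share substrates with FURIN, and their list also holds Cpd, which is not a convertase. Of 7 list genes tested, 3 rose in both fits, 2 of which are described. Pcsk4, a convertase known mainly from germ cells, stood at 4.03, 2.36, 1.5, 3.42 and 2.31 CPM in WT and at 5.85, 6.80, 5.71, 5.40 and 7.73 CPM in KO (fold change 1.22, SE 0.21, edgeR adjusted p = 0.000255), without overlap. Cpd, a carboxypeptidase that trims basic residues after convertase cutting, rose from 131 ± 27.5 to 221 ± 47.2 CPM (SD, n = 5 each, fold change 0.76). Pcsk7 was -0.17 and passed only the 30-library test. Of 20 known FURIN substrates tested, 4 were called in each direction, close to the shares of all genes (18.3% higher and 17.3% lower). The higher count was 2 without WT 67 or 71 or KO 68 or 70, and 1 without KO 74. Both fits called Plxnb2 higher (1.45), Itga4 lower (-1.27), Itgae lower (above) and Pdgfb higher (0.63). Pdgfb lost its call in 6 of 10 fits that left out 1 library, without WT 62, 67 or 71 or KO 68, 70 or 74, with an edgeR adjusted p of up to 0.12.

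The type I interferon response list was lower in KO in most of its members. Of 51 members tested, 37 were called lower and none higher, and both fits called 33 lower. The median fold change was -1.02, and 17 members did not overlap between groups. These genes include the sensors and factors that detect nucleic acids or carry interferon signalling (8 of 10 lower) and the antiviral effectors (29 of 41 lower). The mean log2 level of the list, centred per gene, was 0.32, 0.82, 0.76, 0.26 and 0.97 in the WT libraries and -0.16, -1.05, -0.67, 0.01 and -1.26 in the KO libraries. The groups did not overlap on this summary, WT 62 included.

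Irf7, the factor that amplifies type I interferon production, stood at 4.26, 14.3, 17.4, 8.82 and 17.4 CPM in WT and at 1.2, 0.324, 0.831, 3.69 and 0.368 CPM in KO (fold change -3.24, SE 0.50, edgeR adjusted p = 0.000116). KO 73 was the highest KO library and still below every WT library, and the fold change without KO 73 was -4.24. Zbp1, a sensor of Z-form nucleic acids, stood at 46.5, 65.7, 63.3, 32.5 and 64.5 CPM in WT and at 23.7, 16.3, 13.4, 29.7 and 10.1 CPM in KO (fold change -1.55, SE 0.22, edgeR adjusted p = 6.32e-05). Oas3, an enzyme of the 2'-5' oligoadenylate antiviral pathway, stood at 16.7, 17.1, 17.9, 21.2 and 24.7 CPM in WT and at 11, 4.53, 5.40, 14 and 3.96 CPM in KO (fold change -1.33). Neither Zbp1 nor Oas3 overlapped between groups. Ifi206, of a family of near-identical DNA-binding proteins, was 6.16 ± 3.75 CPM in WT and 0.320 ± 0.332 CPM in KO (SD, n = 5 each), with no count in KO 68 and KO 74. Its fitted fold change was -4.24, and -4.94 without KO 73. Reads may have been split between Ifi206, Ifi209, Ifi214 and Mndal, or between Ifit1, Ifit1bl1 and Ifit3, since the copies are alike, so single members of these families are uncertain.

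The receptor and signalling genes of the same pathway were lower by smaller amounts. Ifnar1 and Ifnar2, the receptor chains, changed by -0.82 and -0.95. Irf9, the DNA-binding part of the interferon-stimulated factor, changed by -0.70. Stat2, another part of that factor, did not pass the test (fold change -0.36, edgeR adjusted p = 0.186). Bst2, which encodes the antiviral membrane protein tetherin, also did not pass the test, with 161 ± 39.2 CPM in WT and 169 ± 24 CPM in KO (SD, n = 5 each).

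The interferon-stimulated response element bound by this factor is visible in the promoters of several members. RefSeq promoter windows of GRCm38.p6, from 250 bases before to 50 after the start, were searched on both strands for GAAA, 2 bases of any kind and GAAA again, counting overlapping matches. The letters were found in 23 of the 39 list members with a window (59%) and in 3.87% of the windows of all genes tested. The 160 bases before the start are shown 5' to 3' on the gene's strand for 4 members that were lower in KO and for Bst2, which holds 2 overlapping matches and did not pass the test, with matches in capitals.
Ifi206, chr1:173491319-173491478, minus strand: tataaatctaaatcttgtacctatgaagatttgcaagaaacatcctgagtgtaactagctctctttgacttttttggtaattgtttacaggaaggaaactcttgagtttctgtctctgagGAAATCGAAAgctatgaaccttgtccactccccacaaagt
Ifit3, chr19:34583369-34583528, plus strand: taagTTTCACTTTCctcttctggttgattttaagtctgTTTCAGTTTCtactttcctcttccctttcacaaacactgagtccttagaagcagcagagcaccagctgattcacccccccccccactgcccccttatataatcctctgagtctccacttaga
Isg15, chr4:156200819-156200978, minus strand: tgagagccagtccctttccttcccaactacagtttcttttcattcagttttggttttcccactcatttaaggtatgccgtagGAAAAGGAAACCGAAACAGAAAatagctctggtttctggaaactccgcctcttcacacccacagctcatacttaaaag
Oas3, chr5:120777660-120777819, minus strand: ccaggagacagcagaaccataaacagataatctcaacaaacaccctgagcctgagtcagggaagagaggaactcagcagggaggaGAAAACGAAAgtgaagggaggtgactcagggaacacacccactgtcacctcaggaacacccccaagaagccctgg
Bst2, chr8:71537473-71537632, minus strand: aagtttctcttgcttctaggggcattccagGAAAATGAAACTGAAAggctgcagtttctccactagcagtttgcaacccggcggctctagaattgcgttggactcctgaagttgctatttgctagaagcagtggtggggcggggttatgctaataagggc
Isg15 carries 3 overlapping matches, which run together. Holding these letters did not separate the members that fell from those that did not. Of the 23 list members with a match, 14 were lower in both fits (60.9%), and of the 16 without, 10 (62.5%). Among 302 genes outside the interferon and antigen presentation lists whose window held a match, 43 were lower in both fits (14.2%) and 24 higher (7.95%), compared with 10.8% and 9.29% of all 8805 tested genes with a window. A match is a description of the sequence and not of binding.

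Interferon-gamma response genes were mixed. Of 29 tested, 10 were called lower and 2 higher, and both fits called 8 and 1. Gbp8, a guanylate-binding GTPase, stood at 6.61, 13.1, 14.6, 6.26 and 14.5 CPM in WT and at 3.72, 0.755, 1.97, 4.07 and 1.2 CPM in KO (fold change -2.24, SE 0.33, edgeR adjusted p = 7.88e-05). The groups did not overlap, but Gbp8 overlaps Gbp9 on chromosome 5 and reads could be shared. Irf1, the factor induced by interferon-gamma, fell from 197 ± 20.0 to 134 ± 26 CPM (SD, n = 5 each, fold change -0.55), without overlap. Gbp2 did not pass the test (641 ± 66.5 and 716 ± 157 CPM). Iigp1, an immunity-related GTPase, was higher in KO, at 166, 103, 104, 105 and 98.8 CPM in WT, against 209, 244, 226, 161 and 281 CPM in KO (fold change 0.96). Only KO 73 lay within the WT range, below WT 62. Ifng itself did not pass the test.

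Of 24 antigen presentation genes of the class I pathway tested, 11 were called lower and 2 higher, and both fits called 10 and 1. The lower calls were 4 of 5 immunoproteasome genes, 4 of 9 peptide loading genes and 3 of 10 heavy chain genes (2 of them in both fits). Psmb8, a catalytic immunoproteasome subunit, stood at 676, 749, 697, 554 and 782 CPM in WT and at 509.9, 372, 364, 516 and 276 CPM in KO (fold change -0.76, SE 0.12, edgeR adjusted p = 0.00012). Psmb10 and Psmb9, the other catalytic subunits, changed by -0.87 and -0.46. None of the 3 catalytic subunits overlapped between groups. Tap1 and Tapbp, which bring peptides to class I molecules, changed by -0.39 and -0.57. The class I heavy chains H2-K1 and H2-D1 and B2m did not pass the test, with fold changes of -0.16, -0.07 and -0.20. Canx, the chaperone calnexin, rose by 0.41.

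**Figure D3:**
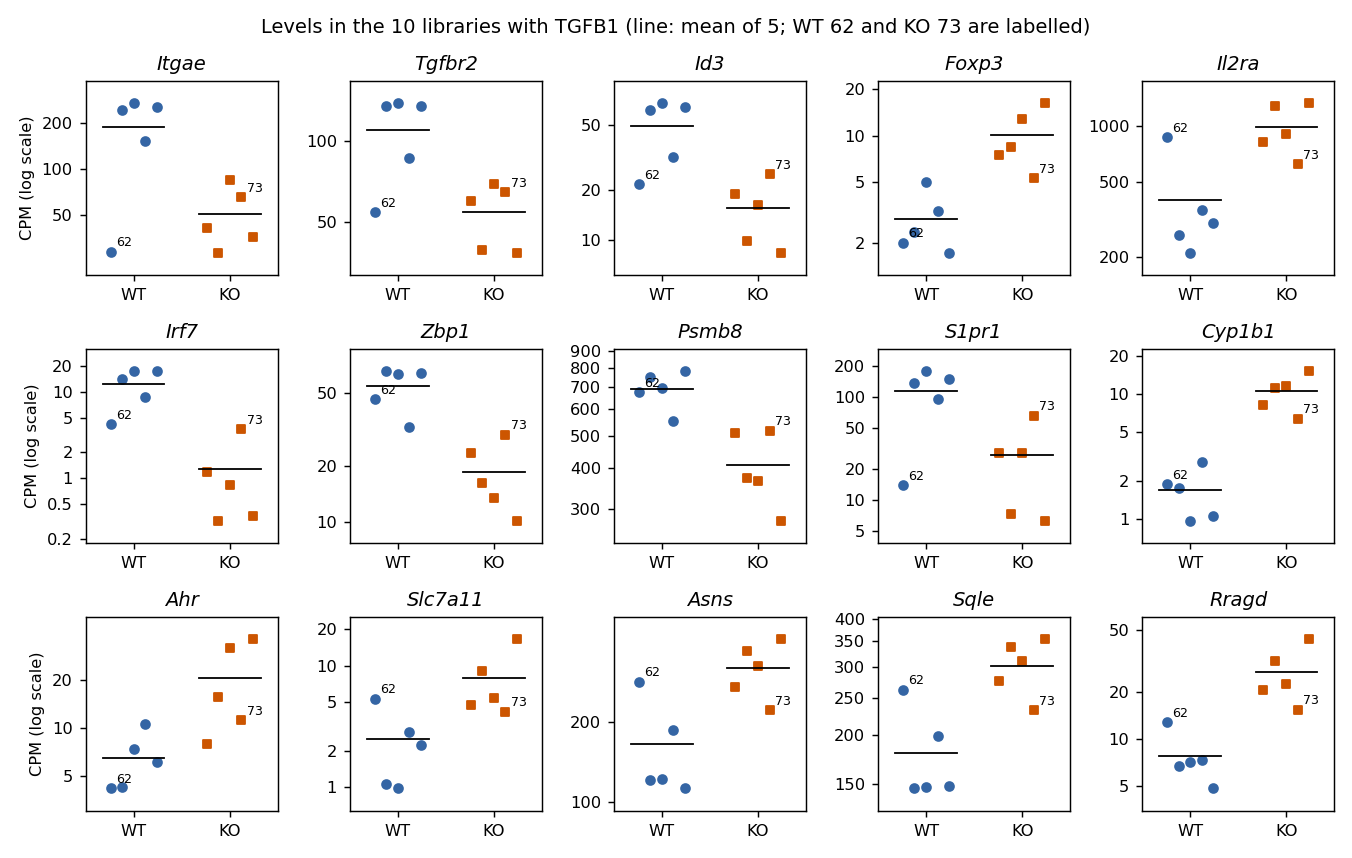
Levels of 15 genes in the 10 libraries with TGFB1, in CPM on a log axis (circles WT, squares KO, line the mean of 5, with WT 62 and KO 73 labelled). For Zbp1, Psmb8, Cyp1b1, Foxp3, Irf7 and Rragd the groups do not overlap, whereas for Itgae, Tgfbr2, Id3 and S1pr1 the point of WT 62 lies among the KO libraries.

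Genes of naive and memory T cells were lower in KO. Of 33 tested, 25 were called lower and none higher, both fits called 19, and the median fold change was -0.92. S1pr1, the receptor with which T cells leave lymphoid tissue, stood at 13.9, 138, 178, 96.0 and 151 CPM in WT and at 28.3, 7.33, 28.4, 66.1 and 6.26 CPM in KO (fold change -2.08, SE 0.62, edgeR adjusted p = 0.0107, and -2.75 without KO 73). WT 62 lay below KO 63, 70 and 73. Satb1, a chromatin organiser of naive T cells, was 207 ± 50.8 CPM in WT and 94.3 ± 29.6 CPM in KO (SD, n = 5 each, fold change -1.14), with overlap only between WT 62 and KO 73.

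Gpr183, a receptor for oxysterols that positions lymphocytes, fell by 2.08 on the log2 scale. It stood at 5.60, 19, 22.7, 13.7 and 16.6 CPM in WT and at 4.12, 3.24, 4.05, 6.06 and 1.01 CPM in KO. Lef1 changed by -0.58 and Bcl6, a repressor of effector genes, by -2.42. Tcf7, Klf2 and Ccr7 were called lower over 30 libraries and not over 10, with edgeR adjusted p of 0.0538, 0.0747 and 0.119 there. Klf2 lost its call without WT 67, 71 or 75 or KO 68 or 74 (edgeR adjusted p up to 0.115), and Ccr7 without WT 67, 71 or 75 or KO 68, 70 or 74 (up to 0.13). Il7r did not pass the test with TGFB1.

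Of 32 homing receptor and integrin genes tested, 17 were called lower and 2 higher, and both fits called 11 lower. The lower count was also 11 without KO 68, WT 71 or WT 75. Itgb3, an integrin beta chain, stood at 4.70, 20.3, 19.8, 12.5 and 37.3 CPM in WT and at 6.65, 1.73, 4.16, 11.3 and 0.921 CPM in KO (fold change -1.94, and -2.56 without KO 73). Itgb7, the beta chain that pairs with Itga4 and Itgae in gut-homing integrins, fell from 576 ± 245 to 206 ± 92.0 CPM (SD, n = 5 each, fold change -1.48). The list level was -0.45 in WT 62 against 0.31 to 0.77 in the other WT libraries, and 0.14 in KO 73 against -0.85 to -0.14 in the other KO libraries.

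T-cell receptor signalling and surface genes were moderately lower. Of 37 tested, 17 were called lower and 2 higher, and both fits called 12 and 1. The lower count was 11 without KO 68 or KO 74. Rasgrp1, which couples the receptor to RAS, stood at 33.8, 66.3, 82.7, 47.4 and 83.9 CPM in WT and at 22.6, 21, 24.4, 36.7 and 23.3 CPM in KO (fold change -1.29). Cd3d stood at 338, 743, 693, 433 and 698 CPM in WT and at 363, 295, 356, 387 and 265 CPM in KO (fold change -0.80). Cd8a and Cd8b1, which encode the co-receptor that defines these cells, changed by -0.49 and -0.63. For these 4 genes WT 62 was the lowest WT library. Cd3e, Lck and Zap70 did not pass the test, with fold changes of -0.12, -0.13 and -0.18.

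Markers of other cell types were measured beside these falls. The 10 CD8 T cell markers summed to between 4420 and 6570 CPM in WT and between 3880 and 4740 CPM in KO, and 6 of them were lower in both fits. The defining B cell gene Pax5, the NK cell genes Ncr1 and Klrb1c, the neutrophil genes S100a8 and S100a9 and the stromal gene Pdgfra had no counts. Summed B cell markers ranged from 607 to 852 CPM in WT and from 442 to 762 CPM in KO, mostly Ighm (737 ± 88.2 and 594 ± 138 CPM, SD, n = 5 each), which did not pass the test. Summed NK cell markers ranged from 115 to 184 and from 84.7 to 145 CPM, myeloid markers from 126 to 203 and from 148 to 181 CPM, CD4 T cell markers from 40.4 to 58.8 and from 40.4 to 61.8 CPM, and stromal and endothelial markers from 26.3 to 81.5 and from 7.64 to 35.7 CPM. The NK cell sum is mostly Nkg7 (151 ± 24.9 and 116 ± 23.9 CPM) and the myeloid sum mostly Cd74 (154 ± 27.7 and 152 ± 16.5 CPM). The stromal and endothelial range is almost all Pecam1, which naive T cells also express (58.1 ± 23.4 and 18.7 ± 11.2 CPM). Summed erythroid and platelet markers stayed at or under 2.02 CPM, and gamma-delta and MAIT T cell markers at 2.02 to 6.63 CPM in WT and 2.58 to 3.88 CPM in KO. Of the markers tested, 2 of 3 of B cells and 3 of 4 of NK cells were called lower, 1 of each in both fits. Mpeg1, a macrophage pore-forming protein, stood at 2.24, 2.12, 2.47, 2.37 and 2.21 CPM in WT and at 5.98, 4.53, 6.13, 3.60 and 6.08 CPM in KO, without overlap, and was called higher in both fits. It was the 1 called of 6 myeloid and dendritic cell markers tested, whose median fold change was -0.105. The part of such cells in the results was not tested.

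Cytokine receptor genes called lower outnumbered those called higher, and Il2ra was higher. Of 32 tested, 15 were called lower and 3 higher, and both fits called 11 and 1. Il2ra, the inducible IL2 receptor chain, stood at 867, 262, 211, 358 and 305 CPM in WT and at 819, 1279, 901, 627 and 1312 CPM in KO (fold change 1.3, SE 0.24, edgeR adjusted p = 0.000474). WT 62 exceeded KO 63 and 73. Il2rb, the shared beta chain, was 1002 ± 207 CPM in WT and 620.0 ± 133 CPM in KO (SD, n = 5 each, fold change -0.69). Il18r1, the IL18 receptor, stood at 17.2, 42.9, 75.6, 40.3 and 29.6 CPM in WT and at 10.9, 11.7, 16.4, 17.0 and 8.47 CPM in KO (fold change -1.68), without overlap. Stat4, Jak1 and Jak3, which signal below these receptors, changed by -0.87, -0.50 and -0.39.

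More cytotoxic genes were lower in KO than higher, and the granzymes depended on single libraries. Of 17 tested, 10 were called lower and 3 higher, and both fits called 6 and 3, against 10.3% and 8.88% of all genes. In both fits, granzyme and perforin genes counted 3 lower and 2 higher of 9. Serpins and death ligands counted 3 lower and 1 higher of 8. Those that rose are not described here. The lower count was 5 without WT 67 or KO 74 and 6 without WT 75. Gzmb, the main granzyme of effector CD8+ T cells, stood at 167, 18.8, 13.9, 26.8 and 41.5 CPM in WT and at 21.4, 19.2, 6.13, 12.5 and 7.46 CPM in KO. The fold change was -2.02 with all libraries (edgeR adjusted p = 0.00238) and -0.95 without WT 62 (edgeR adjusted p = 0.0257), and the 10-library fit without WT 62 did not call it (-0.94, edgeR adjusted p = 0.0633). Gzma was under 5 CPM in every library and lost its call without WT 75 (edgeR adjusted p = 0.071), while its fold change moved from -3.08 to -3.97 without KO 73. Serpinb9, the intracellular inhibitor that protects killer cells from granzyme B, stood at 23.6, 21.7, 13.1, 15 and 29.9 CPM in WT and at 12.9, 8.95, 8.11, 9.57 and 2.58 CPM in KO (fold change -1.31). It was lower in all KO libraries than in any WT library. Prf1 (perforin) was -0.70 and was called in both fits, but lost its call in 8 of 10 fits that left out 1 library, all except those without KO 68 and WT 72 (edgeR adjusted p up to 0.113). Klrd1, which encodes the NK receptor chain CD94, fell from 66.2 ± 29 to 24.7 ± 7.25 CPM (SD, n = 5 each, fold change -1.42).

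Secreted factors split. Of 10 chemokines tested, 3 were called higher and 1 lower, and both fits called 2 and 1. Ccl3 and Ccl4, neighbouring genes for inflammatory chemokines, rose by 1.12 and 0.91. Ccl3 stood at 102, 37.4, 39.4, 77.5 and 55.6 CPM in WT and at 93.6, 181, 128, 95.2 and 180.4 CPM in KO. WT 62 lay above KO 63 and 73. Ccl5, another inflammatory chemokine, stood at 2.91, 4.01, 3.09, 3.42 and 6.05 CPM in WT and at 1.60, 0.863, 0.831, 2.84 and 0.829 CPM in KO (fold change -1.47), with no overlap. Of 20 cytokines, 3 were called higher (5 without WT 62 and 1 without WT 67, 71, 72 or 75 or KO 68) and 2 lower. Both fits called Il1a higher (2.18) and Ltb and Csf1 lower (-0.64 and -0.84). Csf1 lost its call without WT 71 or 75 or KO 63, 68, 70 or 74 (edgeR adjusted p up to 0.105). Ifng, Il2 and Tnf were not called in both fits. The 10-library fit without WT 62, chosen after seeing the data, called Ifng higher (0.70, edgeR adjusted p = 0.0438). It also called Il2 higher (1.28, edgeR adjusted p = 0.0404). Tnf, called over 30 libraries, lost its call without WT 67, 71, 72 or 75 or KO 68 or 70 (edgeR adjusted p up to 0.0791).

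Lineage factors were mostly within the spread. Of 27 effector and memory transcription factors tested, 4 were called lower and 2 higher, and both fits called Eomes, Gata3 and Hopx lower (-1.72, -1.11 and -0.77). The lower count was 7 without WT 62 or KO 73 and 2 without WT 75. Hopx lost its call in 8 of 10 fits that left out 1 library, all except those without WT 62 and KO 73 (edgeR adjusted p up to 0.128). Tbx21, the T-bet gene, did not pass the test (24.4 ± 7.65 and 33.4 ± 6.79 CPM, SD, n = 5 each), but was called without WT 62 (0.63, edgeR adjusted p = 0.0104), without KO 63 (0.0485) or without KO 73 (0.0473). Runx3 and Prdm1 did not pass it either. Of the inhibitory receptors, Btla and Cd200 rose by 0.86 and 1.10 and Vsir fell by 0.99. Pdcd1, Ctla4, Lag3 and Tigit did not pass the test. The 10-library fit without WT 62, chosen after seeing the data, called Pdcd1 lower (-0.445, edgeR adjusted p = 0.0156). Cd86, a ligand of CD28 and CTLA4, stood at 7.39, 19.7, 21.4, 8.16 and 10.8 CPM in WT and at 5.98, 4.32, 3.74, 4.45 and 3.13 CPM in KO (fold change -1.65), without overlap.

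Ahr, its targets Cyp1b1 and Tiparp and the chaperone gene Hsp90ab1 (0.24) were higher in KO. Of 11 genes of this receptor pathway tested, 4 were called higher and 1 lower, and both fits called 4 higher. Ahr, the ligand-activated receptor, stood at 4.14, 4.25, 7.33, 10.5 and 6.05 CPM in WT and at 7.85, 15.5, 31.5, 11.2 and 36.1 CPM in KO (fold change 1.66, SE 0.31, edgeR adjusted p = 0.000457). Cyp1b1, a target that encodes a cytochrome P450, stood at 1.90, 1.77, 0.971, 2.85 and 1.06 CPM in WT and at 8.11, 11.2, 11.5, 6.35 and 15.2 CPM in KO (fold change 2.62). Tiparp, another target, changed by 0.56. Cyp1b1 did not overlap between groups, while Ahr and Tiparp overlapped at their edges. Cyp1a1, Ahrr and Nqo1, also known targets, did not pass the test of 30 libraries (0.58, 0.84 and -0.46).

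Cholesterol synthesis was higher in KO along the pathway. Of 21 enzyme genes tested, 19 were called higher and none lower, and both fits called 15, with a median fold change of 0.64. Lss, which closes the sterol ring, stood at 164, 56.2, 68.8, 133 and 59.4 CPM in WT and at 187, 265, 222, 137 and 279 CPM in KO (fold change 1.18, SE 0.22, edgeR adjusted p = 0.00042). WT 62 exceeded KO 73, and the other 4 WT libraries lay below all KO libraries. Idi1, an isoprenoid isomerase, stood at 73.4, 37.0, 42.6, 62.6 and 32.7 CPM in WT and at 83.9, 109.7, 94.1, 66.3 and 138 CPM in KO (fold change 0.99). Hmgcs1, an early enzyme, rose from 279.6 ± 53.4 to 429.8 ± 94.8 CPM (SD, n = 5 each, fold change 0.62). Insig1, which serves sterol feedback, rose by 0.62, whereas the efflux transporters Abca1 and Abcg1 did not pass the test.

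The sterol response element was searched in the same windows as TCACNCCAC on both strands. It was found in 1 of 26 list members with a window, Hmgcs1, and in 1.36% of windows of all genes tested. The 160 bases before the Hmgcs1 start are shown because it is that member, with the match in capitals.
Hmgcs1, chr13:119690191-119690350, plus strand: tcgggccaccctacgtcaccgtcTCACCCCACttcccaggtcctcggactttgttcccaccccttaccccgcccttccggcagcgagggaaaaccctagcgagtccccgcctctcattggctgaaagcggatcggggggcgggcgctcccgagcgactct
The absence of these letters from the other windows says nothing of the factor.

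Fatty acid genes divided by function. Of 22 synthesis genes tested, 15 were called higher and none lower. Scd1, the stearoyl-CoA desaturase, stood at 156, 46.6, 114, 196 and 57.0 CPM in WT and at 208, 263, 271, 192 and 338 CPM in KO (fold change 1.16). Elovl6 and Fasn, which build long-chain fatty acids, changed by 1.08 and 0.79. Of 12 oxidation genes, 5 were called lower and 2 higher. The fatty acid genes called lower numbered 2 without KO 68 or WT 75 and 3 without WT 67, WT 71 or KO 74. Acadvl, the very long-chain acyl-CoA dehydrogenase, stood at 41.9, 90.6, 75.8, 47.2 and 108 CPM in WT and at 37.1, 40.3, 39.4, 37.5 and 34.8 CPM in KO (fold change -0.94), without overlap. Cpt1a, the carnitine palmitoyltransferase that admits fatty acids to mitochondria, changed by -0.67.

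Amino acid supply genes known as targets of ATF4, the factor of the integrated stress response, were higher in KO. Of 53 list members tested, 40 were called higher and 3 lower, and both fits called 26 and 2, with a median fold change of 0.55. All 16 enzymes of amino acid and one-carbon metabolism tested were called higher over 30 libraries, 14 of them in both fits, as were 8 of 11 transporters and 10 of 12 tRNA synthetases, 5 and 4 of them in both fits. Aldh1l2, a mitochondrial folate enzyme, stood at 7.39, 2.12, 3.88, 7.49 and 3.36 CPM in WT and at 12.5, 20.0, 15.1, 8.90 and 23.8 CPM in KO (fold change 1.72, SE 0.26, edgeR adjusted p = 9.46e-05). It did not overlap between groups. Slc7a11, the cystine importer, stood at 5.38, 1.06, 0.971, 2.85 and 2.21 CPM in WT and at 4.79, 9.06, 5.40, 4.17 and 16.7 CPM in KO (fold change 1.71). Cth, which makes cysteine, changed by 1.28 and Slc1a4, a neutral amino acid carrier, by 1.19. In both Slc7a11 and Cth, WT 62 lay among the KO libraries. Atf4 was called higher over 30 libraries (0.59) and not over 10 (edgeR adjusted p = 0.0867).

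Among targets of the same factor linked to cell death, Ddit3 went the other way. Ddit3, which encodes the pro-apoptotic factor CHOP, stood at 11.4, 9.20, 12, 9.11 and 10.6 CPM in WT and at 7.18, 5.61, 7.17, 8.43 and 5.99 CPM in KO (fold change -0.61). The groups did not overlap, although the call was lost without KO 68, KO 74 or WT 71 (edgeR adjusted p of 0.06, 0.0533 and 0.0561). Chac1 and Trib3 did not pass the test, but their fold changes (0.49 and 0.48) lay near the list median of 0.55. Nupr1, a small stress-induced regulator, rose from 2.67 ± 1.40 to 7.04 ± 2.67 CPM (SD, n = 5 each, fold change 1.40).

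The C/EBP-ATF response element was searched as TGATGCAA on both strands. It was found in 10 of 41 list members with a window (24.4%) and in 0.772% of windows of all genes tested. Upstream sequences are shown for 3 members that rose in both fits and hold a match, Pycr1 being a proline synthesis enzyme, with matches in capitals.
Slc7a11, chr3:50443614-50443773, minus strand: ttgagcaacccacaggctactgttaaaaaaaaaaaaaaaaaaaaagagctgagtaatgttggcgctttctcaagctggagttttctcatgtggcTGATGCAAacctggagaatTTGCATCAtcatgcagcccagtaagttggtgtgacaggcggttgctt
Pycr1, chr11:120643749-120643908, minus strand: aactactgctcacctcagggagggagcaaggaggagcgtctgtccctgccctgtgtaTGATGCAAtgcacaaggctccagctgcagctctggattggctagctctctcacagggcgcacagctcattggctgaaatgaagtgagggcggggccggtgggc
Nupr1, chr7:126625471-126625630, minus strand: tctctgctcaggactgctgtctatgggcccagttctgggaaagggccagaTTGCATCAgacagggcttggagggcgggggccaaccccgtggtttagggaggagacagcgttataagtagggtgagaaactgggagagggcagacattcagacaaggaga
Of the 10 members with a match, 7 were higher in both fits (70%), and of the 31 without, 12 (38.7%). Among 58 genes outside the list with a match, 6 were higher in both fits (10.3%), close to the 9.29% of all tested genes with a window. The numbers are small and no test was made.

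Of 23 genes of MYC and ribosome synthesis tested, 18 were called higher and 3 lower, but only 7 and 2 of them in both fits. Srm, which makes spermidine, stood at 206, 74.9, 69.9, 129 and 90.9 CPM in WT and at 186, 284, 188, 156 and 317 CPM in KO (fold change 0.99). Myc was 0.75 with all 30 libraries, not called over the 10 (edgeR adjusted p = 0.0759), and 1.13 without WT 62. Mxd4, which encodes an antagonist of MYC, fell from 158 ± 60.2 to 61.7 ± 37.2 CPM (SD, n = 5 each, fold change -1.36). Of 19 mTORC1 and catabolic genes, 2 were called higher and 7 lower, and both fits called 2 and 3. Rragd, 1 of the 2 that rose, a RAG GTPase that recruits mTORC1 to lysosomes, stood at 12.8, 6.72, 7.15, 7.30 and 4.80 CPM in WT and at 20.6, 31.8, 22.6, 15.3 and 43.7 CPM in KO (fold change 1.80, SE 0.23, edgeR adjusted p = 5.04e-05), without overlap. Tfrc, the transferrin receptor, changed by 1.06. Of 39 glycolysis and hypoxia genes, 10 were called higher and 3 lower (5 lower without KO 73), with Egln3, a HIF prolyl hydroxylase, the largest rise called in both fits (1.72). Of 32 oxidative phosphorylation genes, 3 were called higher (6 without WT 62 and 1 without KO 63, 68 or 74 or WT 67, 71 or 75) and 2 lower, and both fits called 1, Ndufb9, lower (-0.23). Ndufb9 lost its call without KO 68, KO 74 or WT 71 (edgeR adjusted p up to 0.0728).

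Of 30 G2 and M phase genes tested, 14 were called lower and none higher, and both fits called 8, while the 30-library fit without WT 71 called 9. Ccnb2, a mitotic cyclin, stood at 126, 231, 264, 177 and 212 CPM in WT and at 127, 109, 128, 149 and 100.3 CPM in KO (fold change -0.72). WT 62 lay among the KO libraries. Of 30 S phase genes, 3 were called in each direction. The S phase genes called higher numbered 7 without WT 62 and 1 without WT 67, WT 75 or KO 74, and those called lower numbered 5 without WT 62 or WT 72 and 1 without WT 71. Of 14 cell cycle control genes, 4 were called higher and 5 lower, and both fits called 1 and 4. The cell cycle inhibitor Cdkn2c and the retinoblastoma relative Rbl1 changed by -0.97 and -0.88. Mki67, the proliferation marker, did not pass the test (77.3 ± 29.7 and 73.1 ± 23.4 CPM, SD, n = 5 each). Among apoptosis genes, the pro-apoptotic BH3-only genes Bcl2l11 (BIM) and Bmf fell by 1.32 and 1.14 on the log2 scale, and the effector gene Bak1 fell from 139 ± 15.4 to 93.7 ± 11.5 CPM (SD, n = 5 each, fold change -0.57) without overlap. The pro-survival gene Mcl1 changed by -0.36, and Bcl2 did not pass the test.

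**Figure D4:**
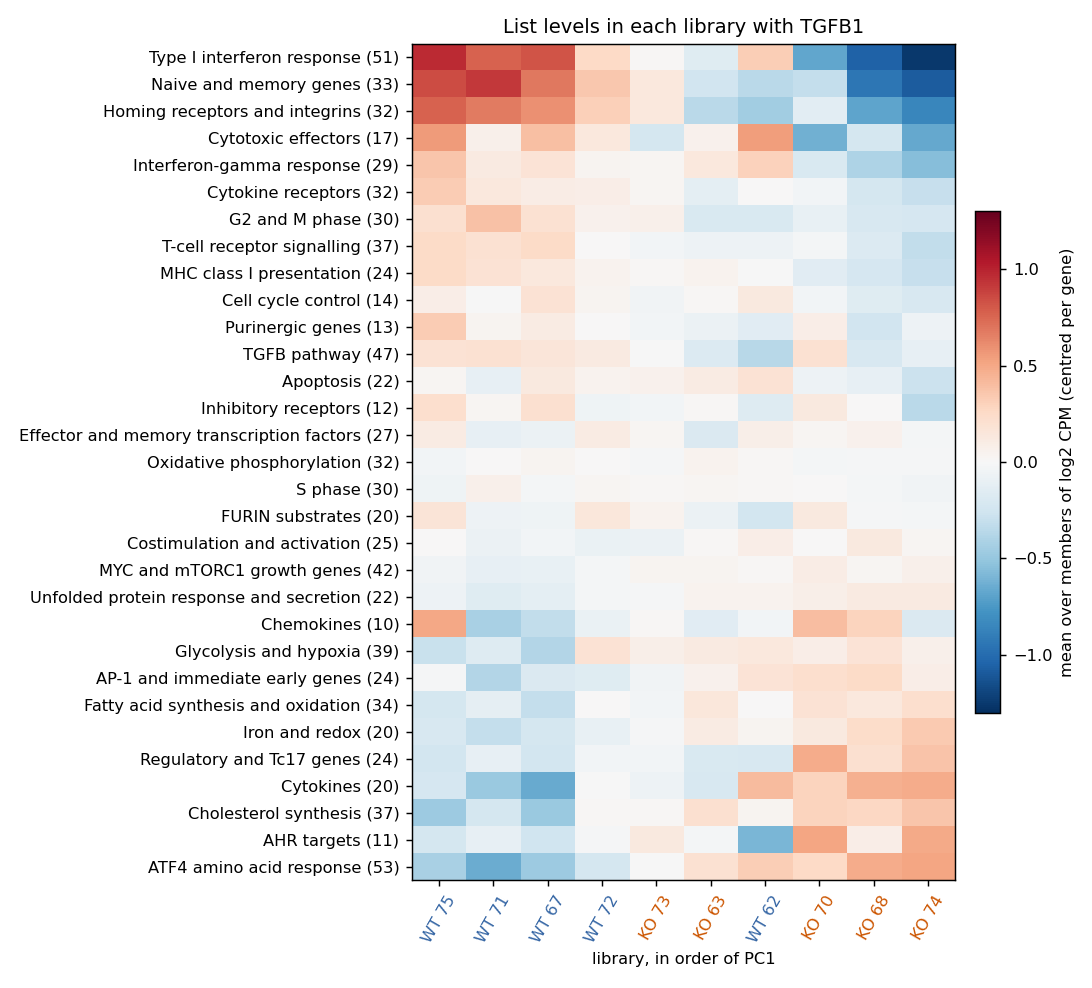
Mean log2 CPM over the tested members of each list (number in brackets), centred per gene, in each of the 10 libraries ordered by the first principal component (colour scale in log2 units). The type I interferon row runs from 0.97 in WT 75 to -1.26 in KO 74, and WT 62 has the sign of the WT libraries in that row but of the KO libraries in the naive row (-0.35).

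The 10 libraries formed a graded series rather than 2 separate sets on many lists. For naive genes the list level was -0.35 in WT 62 and 0.14 in KO 73, so the order of these libraries ran against their labels. The ATF4 list was at 0.32 in WT 62 against -0.65 to -0.22 in the other WT libraries, and at 0.00 in KO 73 against 0.19 to 0.51 in the other KO libraries. The cytotoxic list differed from this order. It was 0.54 in WT 62, beside 0.55 in WT 75, and -0.67 to 0.06 in the KO libraries. The share of counts from mitochondrial genes ranged from 0.715% to 1.49% in WT and from 0.68% to 0.996% in KO and was lowest in WT 62 among WT libraries. Its part in the results was not tested.

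Among the 25 largest rises that were called in both fits and whose higher group averaged 4 CPM or more, the leading genes had low levels in WT. Ranking by fold change with a floor on the higher group alone favours such genes. Nat8l, an N-acetylaspartate synthase, stood at 0.448, 3.66, 1.32, 2.94 and 5.09 CPM in WT and at 9.04, 5.93, 38.7, 23.4 and 12.9 CPM in KO (fold change 2.74, SE 0.44, edgeR adjusted p = 0.000146). Ubd, a ubiquitin-like protein known as FAT10, stood at 1.79, 0.472, 0.618, 1.14 and 0.961 CPM in WT and at 5.45, 5.93, 4.78, 6.54 and 6.72 CPM in KO (fold change 2.56). Dock4, an activator of small GTPases, changed by 2.32, and Emp1, an epithelial membrane protein, by 1.94. None of the 4 overlapped between groups, but the ranking took genes for large called differences, so this is no separate result. Tshb, known as the thyrotropin beta chain, stood at 17.8, 2.48, 3.88, 7.49 and 2.11 CPM in WT and at 32.6, 40.7, 27.1, 18.1 and 37.8 CPM in KO (2.22, and 2.95 without WT 62). Tead1, Gcnt4, F2 and Actr3b also moved by more than 1.5-fold without WT 62, to 2.57, 3.01, 3.48 and 2.43.

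The 25 largest falls were chosen in the same way, so a lack of overlap among them is no separate result. Among them, 7 belong to the interferon lists, and Samd9l, which is on neither list, encodes an interferon-induced restriction factor. Of the others, Ramp3 and Ramp1, partners of calcitonin-family receptors, both fell without overlap. Ramp3 stood at 6.61, 8.38, 4.06, 7.49 and 10.8 CPM in WT and at 1.60, 0.755, 0.831, 2.37 and 0.552 CPM in KO (fold change -2.60, SE 0.49, edgeR adjusted p = 0.000478). Ramp1 fell from 8.12 ± 3.98 to 1.90 ± 0.575 CPM (SD, n = 5 each, fold change -2.09). Samd9l and Tesc, a calcium-binding protein, changed by -2.21 and -2.05, and Nrgn, a calmodulin-binding protein known from neurons, by -2.16, all without overlap. Mt1 and Mt2, neighbouring metallothionein genes that are alike in sequence, changed by -2.02 and -2.36, and Mt1 by -2.66 without KO 73. Baiap3 and Fcgrt moved from -2.50 to -3.66 and from -2.13 to -2.92 without the same library.

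Genes within 2 Mb of Furin on chromosome 7 were counted separately. Of 46 tested, 3 were called higher and 14 lower (37% called, against 35.6% of all genes). Over all genes 18.3% were called higher and 17.3% lower, so this window leaned towards lower calls. Both fits called 6 lower and 0 higher, against 10.3% lower and 8.88% higher over all genes. The 6 lower genes were Abhd2 (-0.78), Cib1 (-0.40), Isg20 (-1.47), Nmb (-0.95), Ntrk3 (-2.0) and Sema4b (-0.98). Ntrk3 was low in both genotypes, with means of 1.68 CPM in WT and 0.41 CPM in KO. Abhd2, Isg20, Nmb and Ntrk3 did not overlap between groups, beside 3.91% of all genes that lay lower without overlap.

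The difference between genotypes with TGFB1 was then set beside that in the other conditions. With no cytokine 246 genes were called (2.1%) and with IL12 794 (6.78%). The interaction test, which compares the KO minus WT difference itself between conditions, called 387 genes against no cytokine (3.3%) and 844 against IL12 (7.2%). Those counts depended on single libraries. They fell to 58 and 120 without WT 75 and rose to 2155 and 3067 without WT 62. Of the named genes called by the interaction test, 11 of 52 against no cytokine and 11 of 65 against IL12 kept their call in all 10 fits that left out 1 library.

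Among those that kept it, Gpr183 had an interaction of -2.49 against no cytokine and -2.15 against IL12 (edgeR adjusted p = 0.0114 and 0.0141). Its fold change was 0.41 with no cytokine and 0.07 with IL12, beside -2.08 with TGFB1. Id3 had an interaction of -1.86 against no cytokine and -2.17 against IL12 (edgeR adjusted p = 0.0126 and 0.00692). Iigp1 changed direction, from -0.51 with no cytokine and -0.42 with IL12, neither of them called, to 0.96 with TGFB1 (interactions 1.47 and 1.38, edgeR adjusted p = 0.0165 and 0.0186). Rragd and Pcsk4 rose with TGFB1 and were -0.28 and -0.19 with no cytokine (interactions 2.08 and 1.41). The enzyme gene Mvd had interactions of 0.93 and 0.81, and the phosphatase gene Dusp2 of -1.05 and -1.15. Smad2, Nsdhl and Ifi214 kept their interactions against no cytokine (0.51, 0.78 and -2.47), and Bak1 kept them against both conditions (-0.53 and -0.56).

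Of 51 type I interferon genes, 2 had a called interaction against no cytokine and 7 against IL12. Those against IL12 included Ifi206 (-3.57), Ifi214 (-2.54) and Ifih1 (-1.03). They kept their calls in 5, 10 and 3 of the 10 fits that left out 1 library. Zbp1, Ifit3, Isg15 and Parp9 were called lower in all 3 conditions, without a called interaction. Isg15 was -1.3 with no cytokine and -1.32 with IL12, beside -1.75 with TGFB1, and Zbp1 was -0.81, -0.84 and -1.55. Over the type I list the median fold change was -0.67, -0.58 and -1.02, with 8 members called lower with no cytokine and 10 with IL12. The immunoproteasome gene Psmb10 was lower in all 3 conditions (-0.49, -0.55 and -0.87). For cholesterol synthesis the medians were 0.00, 0.08 and 0.62, and for the ATF4 list 0.04, 0.06 and 0.55. The difference between these medians was not tested as such. Interactions against no cytokine and IL12 were called at 14 and 9 of 37 cholesterol genes and at 4 and 9 of 53 ATF4 genes. Over all genes the shares were 3.3% and 7.2%, and the overall counts depended on single libraries.

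**Figure D5:**
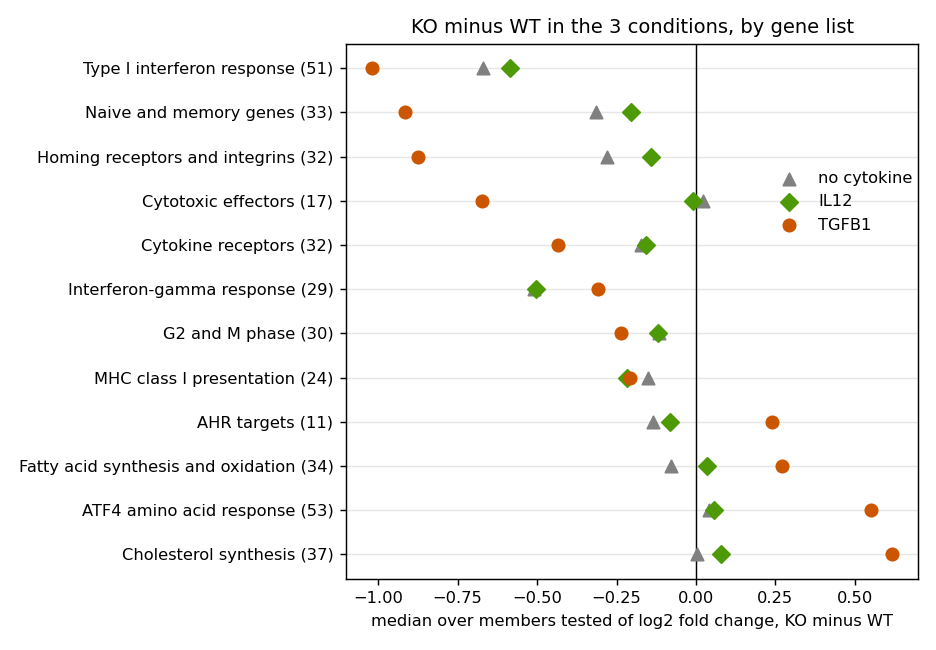
Median log2 fold change, KO minus WT, over the tested members of 12 lists (number in brackets) with no cytokine (triangles), IL12 (diamonds) and TGFB1 (circles). The type I interferon median lies below 0 in all 3 conditions (-0.67, -0.58 and -1.02), and the cholesterol median is 0.00, 0.08 and 0.62.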

How the data were processed

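Whole-number read counts per gene, deposited by the authors as 1 table of 30 libraries, were used as deposited. The build was GRCm38 and the tools were STAR, Trim Galore, FastQC and DESeq2 1.24.0, per the submitters' processing notes. How reads were assigned to genes, with which annotation and strand setting, is not given in the sources used here. For this work gene positions came from GENCODE vM21 and promoter sequences from RefSeq (GRCm38.p6). Of 55573 genes in the table, 93 had no symbol in the annotation (0.00021% of counts).

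Genes were filtered with edgeR's filterByExpr at a minimum count of 10, which left 11718 genes and 99.88% of the counts, and scaled by TMM. The quasi-likelihood test of edgeR 4.0.16 (R 4.3.3) was fitted to all 30 libraries with 1 mean per genotype and condition, so that the spread was shared, and again to the 10 libraries with TGFB1 (11141 genes). P-values were adjusted by Benjamini-Hochberg over all genes tested. CPM used TMM-scaled library sizes, and list levels are means of log2 CPM with a prior count of 1. Standard errors were taken from the fold change and the F statistic. Within each group every pair of libraries differed by more than counting noise.

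Genes were named where they belonged to 44 key genes, to the 25 largest rises or falls called in both fits whose higher group averaged 4 CPM or more, or to a gene list with a call in both fits, or where they define a list, or lie within 2 Mb of Furin. Some of these genes are not reported here. Members and lists were chosen with earlier results of these data known. Alternatives were RLE and upper-quartile scaling, a minimum count of 50 or none, a fold minimum of 1.2, DESeq2 1.42.0, limma-voom (3.58.1) with and without a replicate block, females alone, a term for sex, and each library left out. The fit on 10 libraries without WT 62 and the interactions in limma-voom with no block were added after seeing the data.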

Additional observations from a re-analysis of the deposited data

Results flagged for a closer look

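Levels of the reported key genes and of the 50 genes with the largest changes were examined for single libraries far from the other 4 of their group, over 178 groups of 5 that included the principal components. In 16 of them 1 library stood apart by Dixon's test, whose cutoff gives about 1 in 20 for independent, normally distributed values. CPM were taken without logs and the same libraries recur across genes, so that rate is no benchmark for the 16. WT 62 was the library in 9 of these. It held Il2ra at 867 CPM, Gzmb at 167 CPM, Ifng at 23.7 CPM, Tnf at 15.2 CPM, F2 at 5.82 CPM, Actr3b at 8.4 CPM, Car12 at 4.48 CPM and Mt2, the 1 gene of these that was low, at 2.91 CPM, and it stood at 31.2 on the second principal component. In KO 73, Irf7 was 3.69 CPM and Ctla4 285.9 CPM, both the highest of their group. The remaining libraries so marked were WT 75 for Gzma (4.23 CPM), WT 67 for Pfn2 (2.60 CPM, high), KO 68 for Prf1 (26.3 CPM), KO 70 for Ramp1 (2.91 CPM) and KO 74 for F2 (14.5 CPM).

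The KO minus WT difference with TGFB1 differed from that in another condition by edgeR's interaction test in 35 cases among the same 84 genes, each tested against 2 conditions. Many of these genes were taken for large changes with TGFB1, which favours such differences, so the count is no separate result. Over all genes the interaction test called 3.3% against no cytokine and 7.2% against IL12. Against IL12, the differences above 0 on the log2 scale were 5.19 for F2, 4.01 for Ubd, 2.33 for Cyp1b1, 2.19 for Emp1, 2.01 for Actr3b, 1.54 for Egln3, 1.32 for Dock3, 1.31 for Rragd, 1.28 for Ppp2r3a, 1.25 for Il2ra and 0.64 for Sqle. Those below 0 were -3.57 for Ifi206, -2.54 for Ifi214, -2.50 for Nrgn, -2.33 for Endod1, -2.17 for Id3, -2.15 for Gpr183, -2.08 for Bcl6, -1.74 for Samd9l, -1.43 for Tesc and -0.95 for Tgfbr2. Against no cytokine, the differences above 0 were 3.60 for Ubd, 2.66 for Tshb, 2.10 for Actr3b, 2.08 for Rragd, 1.46 for Ppp2r3a, 1.25 for Il2ra and 0.73 for Sqle. Those below 0 were -2.62 for Nrgn, -2.49 for Gpr183, -2.47 for Ifi214, -2.36 for Ramp3, -2.35 for Endod1, -1.86 for Id3 and -1.13 for Pdcd1. Of these genes, Gpr183, Id3 and Ifi214 kept both differences in all 10 fits that left out 1 library, Rragd kept the one against no cytokine, and Actr3b, Emp1 and Ubd kept the one against IL12. The others lost a call in at least 1 such fit.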

How the results depend on the processing

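No gene followed through the alternatives changed direction where the main fit or the alternative called it. Changes of sign in genes called in neither were not counted. The balance of higher and lower calls shifted. Against 4166 genes called (2144 higher and 2022 lower), the 10 libraries alone gave 2307 (1062 and 1245), of which 2242 were shared in the same direction, and the 10 libraries without WT 62, an alternative chosen after seeing the data, gave 4999 (2481 and 2518). A test against a fold minimum of 1.2 gave 1322 (606 and 716). The other scalings, filters and tools gave 3448 to 4311, and the 4 females of each genotype alone 5105. Upper-quartile scaling moved the median of all genes by -0.04 and the share of calls that were higher from 51.5% to 42.7% (1818 higher and 2435 lower). Leaving out 1 library gave 2799 (without KO 74) to 5386 (without WT 62) genes called, 1370 to 2779 of them higher and 1429 to 2607 lower.

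The interaction against no cytokine (387 genes) ranged from 58 to 2155 and that against IL12 (844 genes) from 120 to 3067 when 1 library was left out. Against no cytokine it gave 71, 91 and 665 when WT 67, 71 or 72 was left out and 93, 885 and 77 when KO 68, 73 or 74 was. Against IL12 it gave 128 and 166 when WT 67 or 71 was left out and 165, 1756 and 125 when KO 68, 73 or 74 was. The cause was not tested.

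Title numbers are shared between conditions of 1 genotype and not between KO and WT. Over 30 pairs of same-numbered libraries the correlation of deviations ran from -0.034 to 0.43 (median 0.222, 26 pairs over 0.1), but 4 pairs were not, and the labels do not say what the number stands for, so pairing was not established and the tests take libraries as independent. With the number as a replicate block in limma-voom (consensus correlation 0.1424), 4311 genes were called (2255 higher and 2056 lower), against 4277 without it, and the interactions called 955 genes against no cytokine and 1986 against IL12. Without the block, limma-voom called 420 and 1061, an alternative chosen after seeing the data.

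Of 331 genes followed through the alternatives, 8 lost their call in the 10 libraries alone and 84 under the fold minimum. At most 5 lost it under another tool, scaling or filter, and 1 (without KO 73) to 23 (without KO 74) when 1 library was left out. Apart from the key genes, those followed were chosen for a call in both fits. Few losses in the 10 libraries alone were thus fixed in advance, and over all genes that fit shared 2242 of the 4166 calls. With 7522984 to 11435315 counts per library, 3 counts over a group of 5 equal 0.0605 CPM in WT and 0.063 CPM in KO.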

Other observations

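Several smaller gene groups have not been described. Of 20 iron and redox genes tested, 8 were called higher and none lower in KO, and both fits called 6 higher, among them Txnrd1 (0.61), the thioredoxin reductase, and G6pdx (0.33), which supplies NADPH. Of 22 genes of protein folding and the unfolded protein response, 9 were called higher and 2 lower, with Hspa5, the endoplasmic reticulum chaperone BiP, at 0.45 and Sdf2l1 at 0.53. Of 13 purinergic genes, 3 were lower in both fits, Art2b (-2.0), Dpp4 (-1.04) and the adenosine receptor gene Adora2a (-0.86), and 2 were higher, Adk (0.38) and the nucleoside transporter gene Slc29a1 (0.50). Of 24 AP-1 and immediate early genes, 5 were called higher and 2 lower (8 higher without WT 62 and 3 without WT 67), and Fosl1 (1.54) and Maff (0.88) rose in both fits.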
